A study of Mus musculus with 24 samples.

Results

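At postnatal day 2 (P2), 1631 of 9134 H3K4me3 peaks in mouse retina (17.9%) overlapped a peak of the transcription factor SOX9 and no peak of SOX8 at either age or of SOX9 at postnatal day 17 (P17). They were selected on these overlaps of 1 bp or more, and are called SOX9-only promoters here. They made up 37.8% of the 4317 P2 H3K4me3 peaks with a P2 SOX9 peak. The presence of SOX9 at P2, the lack of SOX8 and the lack of SOX9 at P17 therefore describe how the regions were chosen and are not findings. Having no peak in a list does not show that a factor was not bound there.

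The study used CUT&RUN, in which an antibody brings a nuclease to a chromatin protein so that the DNA around it is cut out and sequenced. Its 24 libraries came from retinas described as wild type at both ages, with 600000 nuclei per reaction; the strain is not given in the sources used here. Each age had 4 libraries for SOX8, made with 2 different antibodies, and pairs of libraries for SOX9, for the marks H3K4me3 and H3K27ac and for a control IgG. The data used were 8 deposited peak lists, 1 per target and age, with 5476 peaks for P2 SOX9, 2653 for P2 SOX8, 2400 for P17 SOX8, 2855 for P17 SOX9, 9134 and 9629 for P2 and P17 H3K4me3, and 287845 and 29909 for P2 and P17 H3K27ac. No list held values per replicate or peak heights, so there is no replicate error, no test between ages and no known depth. Shares below carry 95% Wilson intervals, which cover counting error only. Whole retina was used, so fewer cells carrying a mark and less mark per cell cannot be told apart.

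SOX8 and SOX9 belong to the SOXE group of transcription factors, which bind short DNA sequences through an HMG domain. In the retina SOX9 is known from the dividing progenitor cells and from Müller glia, the main retinal glial cells, which form from late progenitors. H3K4me3 is a histone mark of promoters that are active or ready to be active, and H3K27ac marks active promoters and enhancers. At P2 the mouse retina still makes rods, bipolar cells, some amacrine cells and Müller glia, while at P17 cell division has ended and the retina is nearly mature.

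Promoter sequences are shown for 6 of the regions, to let a reader see what kind of DNA carried SOX9 and H3K4me3 together at P2. Each spans 250 bases before to 50 after a gene start, from RefSeq on GRCm38.p6, the build that the submitters' processing notes name as GRCm38, and lies wholly within both peaks. Among listed genes with such a window they are the 3 with the widest H3K4me3 peaks that had no P17 H3K4me3 peak, followed by the 3 widest that had one. Wider listed regions, such as those of Tfap2a and Onecut2, had no such window in the table. Capitals mark the SOX core letters ACAAT, read on either strand, so ATTGT marks the same site on the other strand.
Olig2, chr16:91225300-91225599, plus strand: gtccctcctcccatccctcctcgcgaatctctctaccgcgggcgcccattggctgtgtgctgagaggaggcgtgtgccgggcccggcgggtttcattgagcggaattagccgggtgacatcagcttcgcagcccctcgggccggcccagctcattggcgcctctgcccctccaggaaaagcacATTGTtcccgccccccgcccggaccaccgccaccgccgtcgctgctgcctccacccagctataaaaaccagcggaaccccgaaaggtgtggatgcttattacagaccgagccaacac
Dll4, chr2:119325534-119325833, plus strand: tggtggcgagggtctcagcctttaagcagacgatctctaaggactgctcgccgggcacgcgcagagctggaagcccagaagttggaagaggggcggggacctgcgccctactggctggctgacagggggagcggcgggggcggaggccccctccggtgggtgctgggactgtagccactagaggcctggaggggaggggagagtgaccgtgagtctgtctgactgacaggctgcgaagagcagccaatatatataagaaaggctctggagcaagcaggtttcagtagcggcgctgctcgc
Zic1, chr9:91365719-91366018, minus strand: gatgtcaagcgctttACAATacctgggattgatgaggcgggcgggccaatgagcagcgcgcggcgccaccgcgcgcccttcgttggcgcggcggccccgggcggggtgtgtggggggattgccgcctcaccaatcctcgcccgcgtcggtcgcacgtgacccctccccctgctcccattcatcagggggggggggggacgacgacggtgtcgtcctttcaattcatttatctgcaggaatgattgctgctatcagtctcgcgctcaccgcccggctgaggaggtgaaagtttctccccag
Zeb2, chr2:45110228-45110527, minus strand: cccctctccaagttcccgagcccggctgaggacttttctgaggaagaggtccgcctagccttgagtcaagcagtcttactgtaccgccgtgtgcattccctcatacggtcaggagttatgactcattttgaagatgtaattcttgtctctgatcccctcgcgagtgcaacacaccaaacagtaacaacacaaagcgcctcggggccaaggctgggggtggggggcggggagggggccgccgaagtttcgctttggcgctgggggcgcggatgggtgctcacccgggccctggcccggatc
Rpl35a, chr16:33056203-33056502, plus strand: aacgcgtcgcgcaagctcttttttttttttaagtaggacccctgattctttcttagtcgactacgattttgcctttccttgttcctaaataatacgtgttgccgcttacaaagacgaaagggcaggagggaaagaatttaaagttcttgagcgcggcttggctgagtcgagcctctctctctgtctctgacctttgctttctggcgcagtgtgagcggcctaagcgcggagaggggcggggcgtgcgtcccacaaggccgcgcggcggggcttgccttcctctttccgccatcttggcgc
Prdm1, chr10:44458699-44458998, minus strand: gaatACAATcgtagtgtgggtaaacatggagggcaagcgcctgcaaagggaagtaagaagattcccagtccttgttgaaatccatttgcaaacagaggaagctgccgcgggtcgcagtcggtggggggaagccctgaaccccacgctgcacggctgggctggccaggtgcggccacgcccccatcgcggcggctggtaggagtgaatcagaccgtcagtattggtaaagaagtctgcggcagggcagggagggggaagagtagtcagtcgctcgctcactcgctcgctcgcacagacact

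The first 3 genes encode regulators of cell fate in the developing nervous system: a bHLH factor (Olig2), a Notch ligand (Dll4) and a zinc finger factor (Zic1). Zeb2 encodes a zinc finger homeodomain repressor, Rpl35a a protein of the large ribosomal subunit, and Prdm1 a transcriptional repressor present in photoreceptor precursors. Olig2, Zic1 and Prdm1 held 1 copy of the core letters each, and Dll4, Zeb2 and Rpl35a held 0. The 6 windows were 54.3 to 65.3% G and C, and the highest of these values was in Zic1.

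The SOX core letters were about as frequent at SOX9-only promoters as at other promoters with H3K4me3. ACAAT occurred on either strand in 312 of 1687 promoter windows at SOX9-only promoters, or 18.5% (interval 16.7 to 20.4%), against 17.9% of 9434 windows at any P2 H3K4me3 peak. It was found in 18.7% of 4186 windows at peaks with no SOX peak in any list and in 16.3% of 2632 windows at peaks with both P2 SOX9 and P2 SOX8. Over all 21263 windows of the table it was found in 27.7%. AACTA, a control word with the same bases in another order, was found in 21.5% of windows at SOX9-only promoters and in 20.8% at any P2 H3K4me3 peak. The longer form AACAAT, which contains ACAAT, was in 4.33% and 5.03% of the same windows. A pair of inverted ACAAT copies with 4 bases between them was in 0 of the 1687 windows, and in 4 of all 21263. A match is a description of the letters in the window, and a missing match says nothing of what SOX9 bound.

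Base composition lay between that of the other classes. The median G and C content was 63.3% at SOX9-only promoters, 60.7% at peaks with no SOX peak and 65.7% at peaks with SOX9 and SOX8. The median ratio of observed to predicted CpG pairs was 0.825, 0.800 and 0.851 in the same order, against 0.269 at the promoters that had no P2 H3K4me3 peak. Those that lacked H3K4me3 at P17 had a median CpG ratio of 0.766 over 128 windows, and those that had it 0.832 over 1559.

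Gene starts lay at the regions about as often as at all P2 H3K4me3 peaks, so the name promoter held for most of them. A protein-coding gene start lay in or within 1 kb of 1523 of the 1631 regions, or 93.4% (interval 92.1 to 94.5%), and of 93.3% of all P2 H3K4me3 peaks. For 4395 of 21887 genes, which had no start in the RefSeq promoter table, either gene end was counted as a start. There was 1 gene at 1291 regions, 2 genes at 216, 3 genes at 15 and 5 genes at 1, and 108 had none. Among starts with an exact position in the RefSeq promoter table, 1620 of 1687 (96.0%, interval 94.99 to 96.9%) lay inside the SOX9 peak itself. The centre of the SOX9 peak lay at a median of 72 bp into the gene (quartiles -208 and 337 bp, where a negative value lies before the start). The centre of the H3K4me3 peak lay further in, at a median of 339 bp (quartiles 6 and 698 bp).

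**Figure D1:**
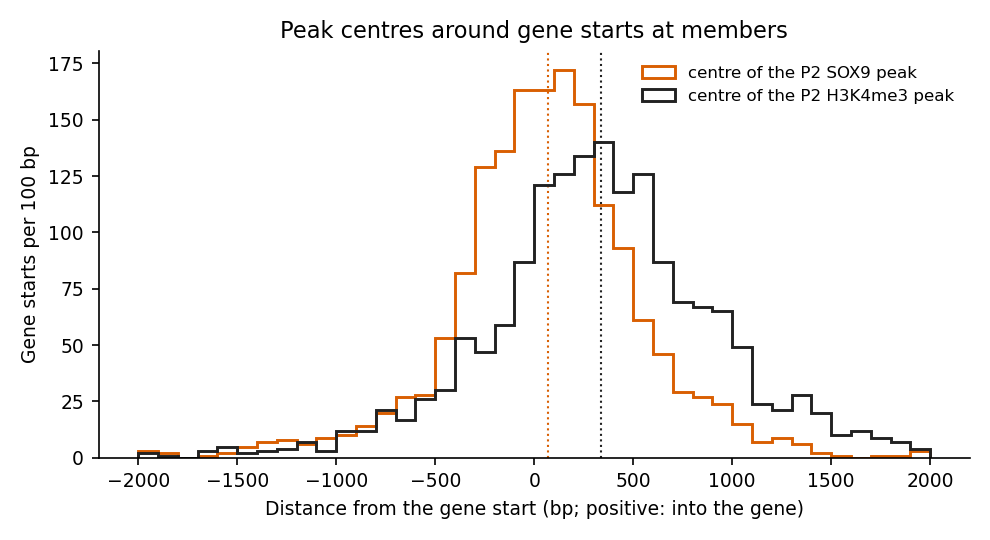
The x axis gives the distance in bp from a gene start to the centre of the P2 SOX9 peak (orange) or P2 H3K4me3 peak (black) over it, for 1687 starts at SOX9-only promoters, and the y axis the number of starts per 100 bp. Dotted lines mark the medians, 72 bp for SOX9 and 339 bp for H3K4me3, and the few centres beyond the axis are not drawn.

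SOX9-only promoters were intermediate in width. Their P2 H3K4me3 peaks had a median width of 3693 bp (quartiles 3053 and 4508, range 1377 to 14914 bp). Peaks with no SOX peak had a median of 3137 bp (2651 to 3719 bp), peaks with P2 SOX9 and SOX8 of 4370 bp (3596 to 5379 bp), and all P2 H3K4me3 peaks of 3542 bp. A wider peak has more bases that can meet a SOX peak, so the choice of the regions bears on these widths. SOX9 peaks covered a median of 2251 bp of the regions (range 319 to 9910 bp), or 62.0% of the H3K4me3 peak. In 1624 regions this was a single SOX9 peak and in 7 it was 2 peaks, and 40 regions (2.45%) lay wholly under SOX9.

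Zeb2 had the widest at 14914 bp, followed by Tfap2a, which encodes an AP-2 factor of amacrine and horizontal cells, at 14417 bp. Mab21l2, a gene required for eye formation, followed at 14169 bp and Nr2f1, an orphan nuclear receptor, at 13398 bp. A region on chromosome 13 with no protein-coding gene start was 12063 bp wide, and Olig2 was 11554 bp wide. The other regions among the 10 widest were those of Polr3gl, Ankrd34a and Lix1l (10626 bp), Iqcg, Rpl35a and Lmln (10318 bp), Fezf2, a zinc finger factor of forebrain neurons (10172 bp), and Prdm1 (10170 bp). The narrowest was at Gins1, a subunit of the replicative helicase, at 1377 bp, followed by Wrap73, Tmx4, a region without a gene start and Med11, a Mediator subunit, at 1568 to 1634 bp.

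SOX9 covered most bases at Nr2f1, with 9910 bp or 74.0% of the H3K4me3 peak, and at Mab21l2, with 9485 bp or 66.9%. Zeb2 followed with 7795 bp and Zfp536, a zinc finger gene of neural cells, with 7665 bp. Rnf165 had 7309 bp, and the histone genes H4c8, H2ac10 and H3c8 had 6828 bp together. Fezf2 had 6154 bp, a region on chromosome 17 without a gene start 6044 bp, which was all of its H3K4me3 peak, and Polr3gl, Ankrd34a and Lix1l 5794 bp. At Tfap2a, in contrast, SOX9 covered 1617 of 14417 bp, or 11.2%.

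Few regions lay near the limits of the selection. The smallest SOX9 overlaps were 319 bp at S1pr2, a receptor for sphingosine 1-phosphate, 850 bp at Mllt3, 954 bp at Scaper, 1040 bp at a region without a gene start and 1062 bp at Crnkl1 and Cfap61. Just outside, the peaks without any SOX peak that lay nearest to SOX9 were those at Gal3st3 (385 bp away), Zfp36 (401 bp), Rnaseh2a (457 bp), Nuak2 (486 bp) and Cerk (581 bp). On the side of the excluding lists, the nearest SOX8 or P17 SOX9 peak was 87 bp away at Sulf2, 313 bp at Pfdn6 and Wdr46, 535 bp at Trmt61a, 626 bp at Dnmt3a and 716 bp at Cbx6 and Npcd. The median distance to such a peak was 121158 bp, and 8 regions (0.490%) had one within 1 kb. Left out for the smallest overlaps were the peaks at Crb2 (23 bp), Prdx2 (109 bp), Plxna1 (142 bp), Klf15 (153 bp) and a peak without a gene start (223 bp).

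The first question was whether these promoters still carried H3K4me3 at P17. Most did: 1470 of 1631, or 90.1% (interval 88.6 to 91.5%), overlapped a P17 H3K4me3 peak, close to the 90.3% of all P2 H3K4me3 peaks. The share was 86.6% (85.5 to 87.5%) at peaks with no SOX peak and 96.7% (95.9 to 97.4%) at peaks with P2 SOX9 and SOX8. The difference of SOX9-only promoters was 3.57 percentage points from the first class and -6.58 points from the second. With only the wider 50% of each list these were 12.6 and -13.3 points. Peaks are not replicates, and these differences between classes were not tested. The class with SOX9 and SOX8 was not screened for P17 SOX peaks, while the other classes by rule had none. The selection therefore bears on every comparison of P17 marks with that class. Another 435 peaks with P2 SOX9 and a P17 SOX peak, but no P2 SOX8, are in none of these classes.

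H3K27ac at P17 gave the same order of classes. It overlapped 1406 SOX9-only promoters, or 86.2% (84.4 to 87.8%), against 84.9% of all P2 H3K4me3 peaks. The share was 77.6% (76.3 to 78.8%) with no SOX peak and 95.8% (94.9 to 96.5%) with SOX9 and SOX8. Where it was present at SOX9-only promoters, it covered a median of 86.4% of the P2 H3K4me3 peak, and 401 regions (24.6%) lay wholly under it. The median cover was 89.1% over all P2 H3K4me3 peaks with it, 84.7% with no SOX peak and 93.8% with SOX9 and SOX8. The share wholly under it was not computed over all peaks. At P2, H3K27ac overlapped 1622 of the regions (99.4%) and 98.2% of all P2 H3K4me3 peaks. The P2 list is far longer than the P17 list, so a share near 100% separates little, and the lists of the 2 ages were not set against each other.

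Both marks were present at P17 over 1346 SOX9-only promoters, or 82.5% (80.6 to 84.3%), against 82.1% of all P2 H3K4me3 peaks. H3K4me3 alone was present over 124 (7.60%, against 8.18% of all) and H3K27ac alone over 60 (3.68%, against 2.78% of all). Neither was present over 101, or 6.19% (5.12 to 7.47%), against 6.91% of all. With no SOX peak the share with neither mark was 10.4%, and with SOX9 and SOX8 it was 1.73%.

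**Figure D2:**
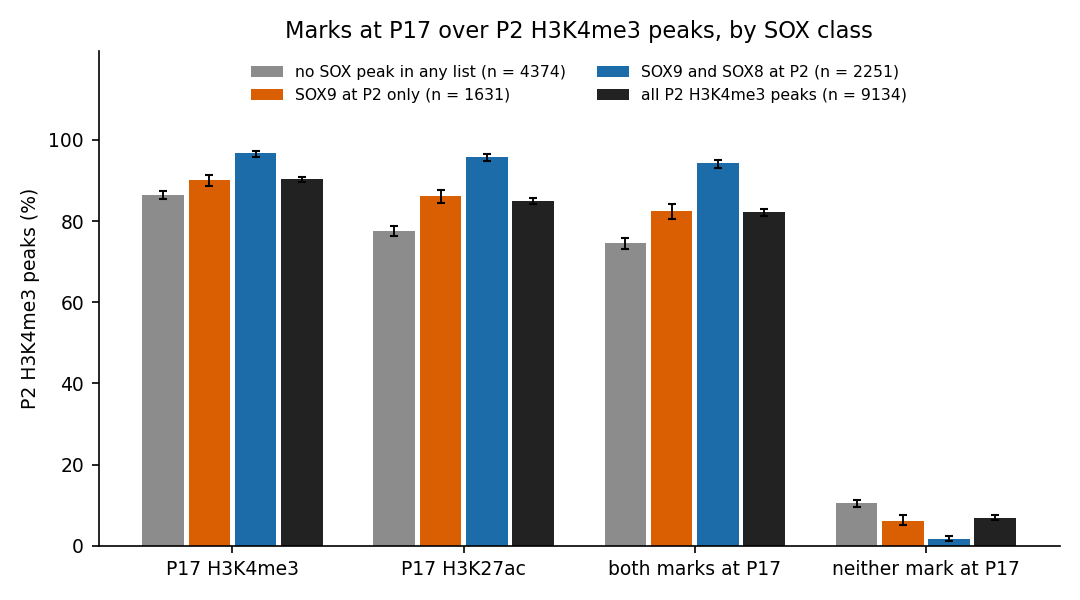
Bars give the percentage of P2 H3K4me3 peaks that overlapped each mark at P17, in peaks with no SOX peak (grey, n = 4374), SOX9-only promoters (orange, n = 1631), peaks with P2 SOX9 and SOX8 (blue, n = 2251) and all peaks (black, n = 9134), and error bars are 95% Wilson intervals. SOX9-only promoters sit between the other classes for every mark shown, at 90.1% for H3K4me3 and 86.2% for H3K27ac.

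Because the classes differed in width, the shares were also read within 4 groups of P2 peak width, set on all P2 H3K4me3 peaks. The widest group was broad, from 4430 to 34586 bp. From the narrowest to the widest group, H3K4me3 at P17 was present at 90.1%, 92.8%, 92.5% and 85.0% of SOX9-only promoters. The same groups gave 87.6%, 87.9%, 85.4% and 81.1% with no SOX peak, and 98.4%, 97.7%, 97.0% and 96.0% with SOX9 and SOX8. The intervals of SOX9-only promoters and peaks with no SOX peak overlapped in the narrowest and the widest group and were apart in the other 2. For H3K27ac the values at SOX9-only promoters were 90.1%, 87.7%, 85.9% and 82.3%, against 78.0%, 79.2%, 77.3% and 71.8% with no SOX peak. Here the intervals were apart in all 4 groups. Such intervals cover counting error only and do not test a difference between classes. Each mark was least frequent in the widest group in each of the 3 classes. Over all P2 H3K4me3 peaks each was instead least frequent in the narrowest group. There H3K4me3 was present at 88.8% and H3K27ac at 82.0%, against 90.8% and 87.3% in the widest group.

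**Figure D3:**
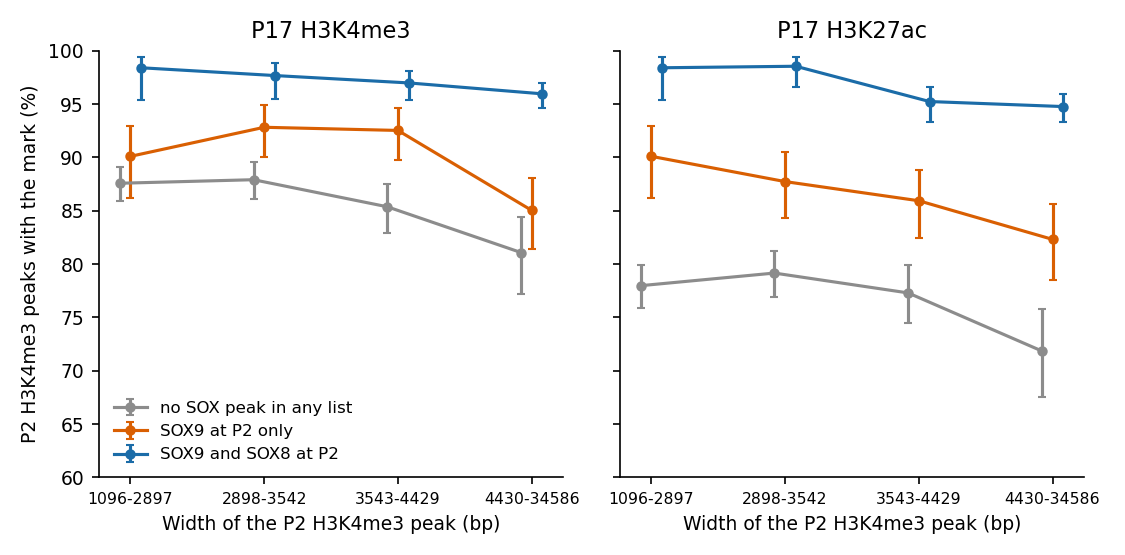
Points give the percentage of P2 H3K4me3 peaks with P17 H3K4me3 (left) or P17 H3K27ac (right) in 4 groups of P2 peak width in bp, for the 3 classes, with 95% Wilson intervals; the y axis starts at 60%. The SOX9-only promoters (orange) lie between the other classes in every group and are lowest in the widest, at 85.0% and 82.3%.

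Among the 1470 SOX9-only promoters with H3K4me3 at both ages, the width was about the same. The P17 peaks spanned a median of 1.01 times the P2 width (quartiles 0.868 and 1.20, range 0.260 to 4.15), against 1.05 for all P2 H3K4me3 peaks that were kept. The P17 peak was narrower at 688 (46.8%), under 0.7 times the P2 width at 117 (7.96%) and over 1.5 times at 100 (6.80%). The share under 0.7 times was 6.05% with no SOX peak, 5.51% with SOX9 and SOX8 and 6.09% over all. The lowest ratio was at Tspan15, a tetraspanin gene, from 7099 to 1849 bp (0.260). It was followed by the histone genes H4c12, H2ac15 and H2bc15 (0.331), Cks2, a subunit of cyclin-dependent kinase complexes (0.441), Jpt1 (0.462) and Dusp16, a phosphatase of MAP kinases (0.464). The highest were at Ovca2 (4.15), Micos13 and Rpl36 (3.42), Commd3 (3.06), Sarm1 and Vtn (2.90) and Fam107b (2.85), where the P17 peak was 6975 to 10736 bp wide. A wide P17 peak can span neighbouring P2 peaks: 1 P17 peak of 9033 bp covered both regions at Rpl36.

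The 161 SOX9-only promoters without H3K4me3 at P17 were somewhat wider than the others at P2. Their median P2 width was 3940 bp against 3672.5 bp for those that kept the mark. A gene start lay at 134 of them (83.2%, interval 76.7 to 88.2%) and at 1389 of the 1470 others (94.5%, 93.2 to 95.5%). H3K27ac was present at P17 over 60 of the 161 (37.3%), so 101 carried neither mark. Of all P2 H3K4me3 peaks without P17 H3K4me3, 254 of 885 had P17 H3K27ac. The counts were 133 of 588 with no SOX peak and 35 of 74 with SOX9 and SOX8. SOX9 had covered a median of 2501 bp of these regions at P2, and 2229 bp of the others.

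Of the widest regions without P17 H3K4me3, those of Olig2 (11554 bp), Fezf2 (10172 bp), Onecut2 (8669 bp), a factor of horizontal cells, and Dll4 (8255 bp) had neither H3K4me3 nor H3K27ac at P17. The same was true of Zic1 and Zic4 (8231 bp), Tgif1 (8148 bp), a homeobox repressor of TGF-beta signalling, Cyp1b1 (8047 bp), a cytochrome P450, and Tafa1 (8014 bp). Nxph4, a neurexophilin gene (7787 bp), and a region on chromosome 13 without a gene start (7731 bp) also lacked H3K4me3 but lay wholly under H3K27ac at P17. The widest regions without P17 H3K27ac were Olig2 and Fezf2, a region on chromosome 4 with none of the gene starts used (10001 bp), Gad1 (9405 bp) and Pcdh10 (8947 bp), a protocadherin gene. The last 3 had P17 H3K4me3 peaks of 5143, 6977 and 8400 bp.

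The genes were next read by lists of pathways and cell types. The regions lay at 1766 of the 9686 protein-coding genes with a P2 H3K4me3 peak at the start, or 18.2%, and 1623 of the 1766 (91.9%) had a P17 H3K4me3 peak there. In 32 lists holding 1475 genes, 222 genes were at a SOX9-only promoter, in 223 regions, and 179 of the 222 had P17 H3K4me3. P17 H3K27ac was present at 1552 of the 1766. These shares over all genes are the ones to set beside the counts of each list. Counts over a list's few genes rest on single peak calls. In the values below, the first width is the summed full width of the P17 H3K4me3 peaks that touch the region, which can reach beyond it, and the width after "over" is that of the P2 peak.

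Of the lists, that of cell cycle and DNA replication had most genes without H3K4me3 at P17. Of 108 genes in the list, 100 had a P2 H3K4me3 peak and 22 of these (22.0%, beside 18.2% over all genes) were at SOX9-only promoters. P17 H3K4me3 was present at 6 of the 22, or 27.3% (interval 13.2 to 48.2%), against 91.9% of all genes at such promoters. The mark was also missing at P17 from such genes in the other classes: 29 of 56 cell cycle genes with no SOX peak (51.8%), 13 of 17 with SOX9 and SOX8 (76.5%) and 51 of 100 in all kept the mark. The genes at SOX9-only promoters that kept it were Cdk6, a kinase of the G1 phase (5365 bp at P17, 0.841 times its P2 width), Cdkn2c, an inhibitor of that kinase (4464 bp, 0.793 times), Kif11, Rb1, Cdc45 and Tfdp1. Kif11, the motor of the bipolar spindle, had 2169 over 4467 bp, and Rb1, which holds cells out of the cycle, 4277 over 4382 bp.

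The 16 without P17 H3K4me3 act mostly in S phase and mitosis. E2f8, an E2F repressor (5252 bp at P2), Rrm2, a subunit of ribonucleotide reductase (4944 bp), and Mki67, the proliferation marker Ki-67 (4789 bp), had neither mark at P17. Neither did Cdk1, the mitotic kinase (4436 bp), Top2a, Tk1, Cdc20, Anln and Gins1. Ccna2, which encodes cyclin A (4572 bp), lacked H3K4me3 but had 1748 bp of its region under P17 H3K27ac. Birc5, Mcm5, Nuf2, Ect2, Ttk and Rfc5 likewise had H3K27ac without H3K4me3, over 1273 to 2532 bp. SOX9 had covered 1177 to 3109 bp of these 16 regions at P2, and 2247 to 4279 bp of the 6 that kept H3K4me3.

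Retinal progenitor genes also mostly lacked the mark at P17. Of 26 genes, 23 had a P2 H3K4me3 peak and 6 of these (26.1%, beside 18.2% over all genes) were at SOX9-only promoters. P17 H3K4me3 was present at 1 of the 6. Zic1 (8231 bp at P2), the growth factor gene Fgf15 (7034 bp), the intermediate filament gene Nes (5864 bp), the chromatin protein gene Hmga2 (5409 bp) and Mki67 had neither mark at P17. Over all classes 10 of 23 progenitor genes kept H3K4me3, among them 9 of the 15 with SOX9 and SOX8 at P2.

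Of 22 Müller glia genes with P2 H3K4me3, 4 were at SOX9-only promoters (18.2%, as over all genes). Dkk3, a secreted protein related to Wnt inhibitors, kept 3784 bp of H3K4me3 at P17 over a P2 peak of 7740 bp, and Tgfb2, a TGF-beta ligand, 5091 over 7310 bp. Nfia, a nuclear factor of gliogenesis (7103 bp at P2), had no P17 H3K4me3 peak over the region at the start used for it. In that region, chr4:97579715-97586817, P17 H3K27ac covered 4863 bp. Another SOX9-only region on this chromosome, chr4:97771030-97781030, held none of the gene starts used and had a P17 H3K4me3 peak of 5143 bp. Whether that region belongs to Nfia was not tested. Sox9 itself (5787 bp at P2) had 5278 bp under the P2 SOX9 peak and no peak of either mark at P17. Over all classes 9 of the 22 genes had P17 H3K4me3.

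Amacrine and horizontal cell genes had 9 of 16 at SOX9-only promoters (56.3%, beside the 18.2% over all genes). P17 H3K4me3 was present at 7 of the 9 (77.8%, beside 91.9% of all genes at these promoters) and at 12 of the 16 over all classes. Tfap2a had 13423 over 14417 bp, and Gad1, an enzyme of GABA synthesis, 6977 over 9405 bp with no P17 H3K27ac peak. Barhl2, a homeobox gene of amacrine cells, kept 7945 over 8471 bp, and Sox4, a SOXC factor of young neurons, 7187 over 8460 bp. Prox1, a homeobox gene of horizontal and AII amacrine cells, was wider at P17, with 9015 over 7399 bp. Onecut2 (8669 bp) had neither mark, nor had Foxn4, a forkhead factor of amacrine and horizontal progenitors.

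Among proneural and neurogenic bHLH genes, 4 of 16 were at SOX9-only promoters. Olig2 had neither mark at P17, while Neurod4 (5951 over 8716 bp), Tcf12 (4008 over 5588 bp) and Hey2, a Notch target (6157 over 4962 bp), kept both. The photoreceptor list had 1 of 14 genes, Prdm1, which kept 5709 over 10170 bp of H3K4me3 with the whole region under P17 H3K27ac. The bipolar list had 2 of 6, both with P17 H3K4me3, and Lhx4, a LIM homeobox gene, kept 8284 over 6545 bp. The ganglion cell list had 2 of 14, Klf6 (5238 over 5761 bp) and the neurofilament gene Nefm (5329 over 4873 bp, without P17 H3K27ac). Synapse and neurotransmission genes had 1 of 30, the neuroligin gene Nlgn1. Of homeobox genes outside the retinal lists, 6 of 32 were at SOX9-only promoters. Zeb2 kept 11088 over 14914 bp, while Tgif1 and Vax1, a homeobox gene of the ventral eye (7410 bp), had neither mark. Over all classes, P17 H3K4me3 was present at 11 of 16 bHLH, 14 of 14 photoreceptor and 6 of 6 bipolar cell genes. It was present at 9 of 14 ganglion cell, 28 of 30 synapse and 23 of 32 of these homeobox genes.

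**Figure D4:**
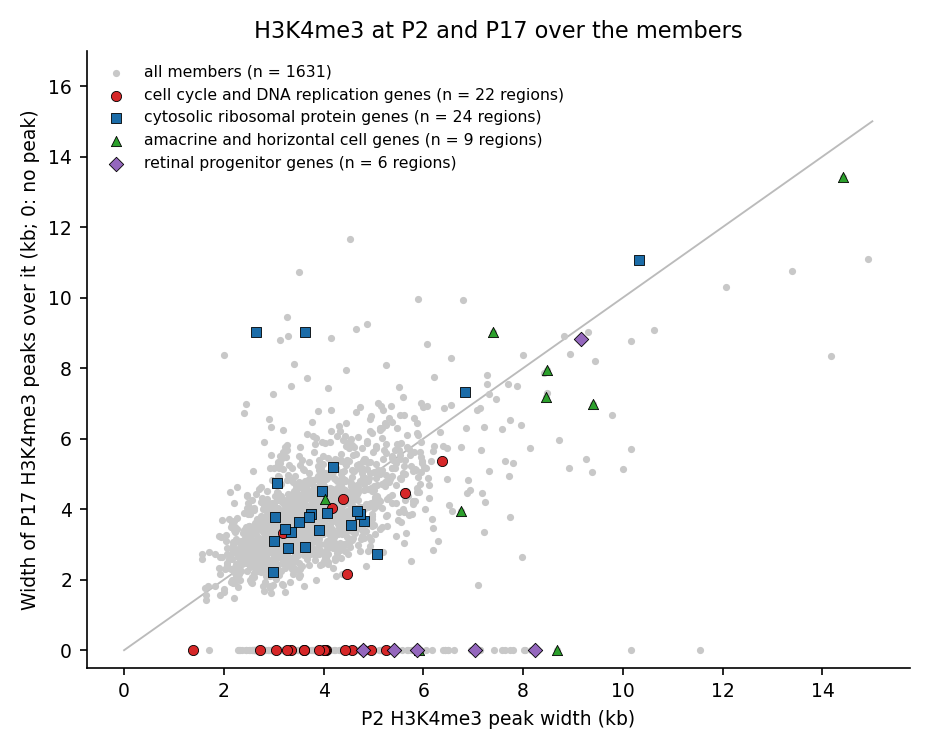
Each point is a SOX9-only promoter, with its P2 H3K4me3 peak width in kb on the x axis and the summed width in kb of the P17 H3K4me3 peaks over it on the y axis (0 where there was none); the line marks equal width. Of the coloured lists, the 24 regions with ribosomal protein genes all lie above 0, while 16 of 22 with cell cycle genes and 5 of 6 with progenitor genes lie at 0, Mki67 being in both lists.

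In the Notch pathway 8 of 40 genes were at SOX9-only promoters, and P17 H3K4me3 was present at 6 of the 8 and at 32 of the 40. The ligand gene Dll4 (8255 bp) had neither mark at P17 and the ligand gene Dll3 (5674 bp) had H3K27ac over 1171 bp only. Jag1, also a ligand gene, kept 4826 over 4328 bp, and the modulators Mib1, Numb and Adam17 kept both marks with ratios of 0.975 to 1.20. In the Wnt list 7 of 40 genes were at SOX9-only promoters and all 7 had P17 H3K4me3, as had 30 of the 40. They were Dkk3, the receptors Fzd2 (3457 over 6188 bp), Fzd1 and Lrp6, the kinase Csnk1a1, Vangl2 and Ctnnb1, the gene of beta-catenin (4650 over 5233 bp). Fzd1 had no P17 H3K27ac peak.

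In the Hedgehog, BMP and TGF-beta list, 7 of 33 genes were at SOX9-only promoters, and 4 of the 7 and 22 of the 33 had P17 H3K4me3. The Hedgehog members Gli3 (7576 bp) and Gli2 (5421 bp), transcription factors, and Hhip (5217 bp), an inhibitor, had neither mark at P17. The BMP and TGF-beta members Tgfb2, Bmpr1a, Tgfb3 and Smad4 had both. In the Hippo list 9 of 24 genes (37.5%, beside 18.2% over all genes) were at SOX9-only promoters, and 7 of the 9 and 21 of the 24 had P17 H3K4me3. Wwtr1, the coactivator TAZ, kept 3913 over 4568 bp, the kinase Lats1 5115 over 4566 bp and the factor Tead1 4875 over 4900 bp, the last without P17 H3K27ac. Taok2, Fat3, Wwc2 and Mob1a kept both marks, Ajuba (5138 bp, wholly under SOX9 at P2) kept H3K27ac over 711 bp only, and Tead2 (3127 bp) kept neither.

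The FGF, EGF and MAPK list had 8 of 44 genes, of which Fgf15 had neither mark and 7 kept H3K4me3, as did 40 of the 44. Etv1, Erbb4 and Rras2 kept H3K4me3 without H3K27ac, while the kinase Map2k1 kept both. So did the region of Pa2g4 and the receptor gene Erbb3. Erbb3 was placed there by either gene end, so the marks need not be those of its own start. The axon guidance list had 14 of 51 genes at SOX9-only promoters (27.5%, beside 18.2% over all genes), and 38 of the 51 kept H3K4me3. Of the 14 genes, 11 kept H3K4me3 and 7 had H3K27ac at P17, which 1552 of all 1766 genes at such promoters had. Rgmb kept 8681 over 6063 bp, the receptor Epha4 6438 over 5223 bp and the receptor Unc5c 5278 over 5049 bp. Robo2 had 2 such regions, with 5353 over 5982 bp and 4338 over 5320 bp. Epha2, Plxnd1 and Draxin had neither mark, and Sema5a, Slit2, Plxna4 and Ephb6 had H3K4me3 alone. Extracellular matrix and adhesion genes had 4 of 27, and 1 of the 4 and 14 of the 27 had P17 H3K4me3. The integrin gene Itgb5 had 3084 over 6296 bp, and Itgb8 (6436 bp), the cartilage collagen gene Col2a1 (6174 bp), a known SOX9 target in cartilage, and Lama1 (3376 bp) had neither mark.

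Of 81 cytosolic ribosomal protein genes, 23 were at SOX9-only promoters (28.4%, beside 18.2% over all genes). All 23 had both marks at P17, and all 81 had H3K4me3 at both ages. Rpl35a had the widest region (11065 over 10318 bp), followed by Rps2 (7314 over 6832 bp) and Rpl32, where the P17 peak was 0.541 times as wide (2741 over 5066 bp). Chromatin regulators had 25 of 141 genes at SOX9-only promoters (17.7%, near the 18.2% over all genes). Of the 25, 24 kept H3K4me3, as did 138 of the 141, and all 25 had H3K27ac. They include the H3K4 demethylases Kdm5b (8764 over 10168 bp) and Kdm5a (4146 over 4858 bp), the remodeller Chd2 (7872 over 8418 bp) and the cohesin subunit Stag2 (7001 over 5952 bp). Dnmt3a, a DNA methyltransferase (3010 bp), lacked P17 H3K4me3 over a region that lay wholly under H3K27ac.

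SOX9-only promoters also held 9 of 47 cilium genes, 10 of 38 autophagy and lysosome genes, 7 of 36 proteasome genes, 7 of 32 sterol and fatty acid synthesis genes and 9 of 51 neural RNA-binding and splicing genes, and every one of these had P17 H3K4me3. The mark was present at P17 over all classes at 47 of 47, 38 of 38, 36 of 36, 31 of 32 and 46 of 51 genes of these lists in the same order, so the counts say nothing particular about SOX9-only promoters. Examples are Cep290, a protein of the ciliary transition zone (3686 over 2663 bp), the kinase Ulk1, which starts autophagy (3535 over 3495 bp), Psmc2, a proteasome ATPase (6814 over 5198 bp), Sqle, the squalene epoxidase of sterol synthesis (6484 over 5377 bp), and Celf2 (7558 over 7703 bp). DNA repair genes had 12 of 58 at SOX9-only promoters. P17 H3K4me3 was kept at 11 of the 12, near the 53 of 58 over all classes, and lacking at Bard1, the partner of BRCA1. Oxidative phosphorylation genes had 10 of 75 (13.3%, beside 18.2% over all genes). They kept the mark at 9 of the 10, beside 74 of 75 over all classes. Glycolysis genes had 1 of 24, Pdk1.

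**Figure D5:**
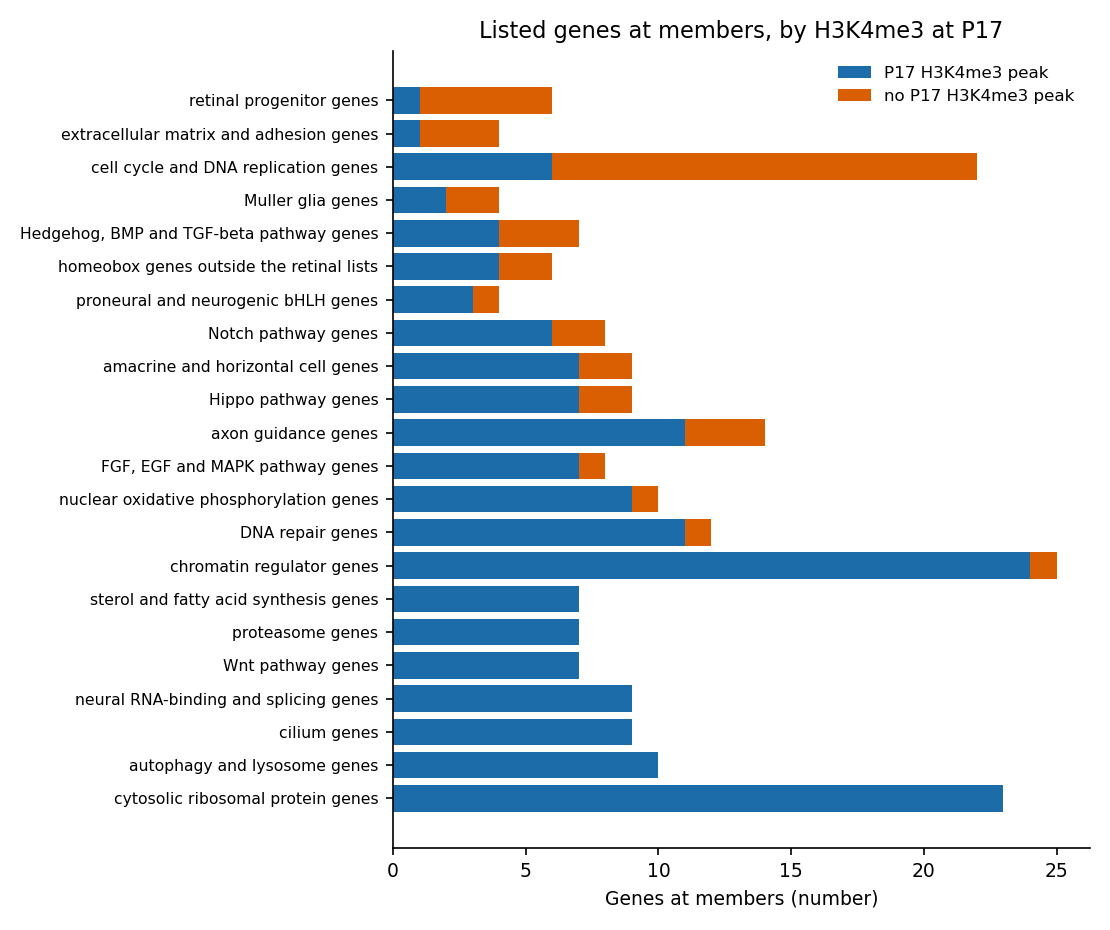
Bars give the number of genes at SOX9-only promoters, for each list with at least 4 such genes, split into those with a P17 H3K4me3 peak (blue) and those without (orange). Orange parts are longest for cell cycle genes (16 of 22) and progenitor genes (5 of 6), and 7 lists at the bottom have none.

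Markers of cell types that a whole retina could also hold gave little. None of 15 microglia and none of 9 astrocyte markers had a P2 H3K4me3 peak, although 3 of the latter, Gfap, Aqp4 and Slc1a2, are also in the Müller glia list. Of 16 endothelial and pericyte markers 1 had a peak, Kdr, a VEGF receptor also known from retinal progenitors, and it was a SOX9-only promoter that kept both marks (5162 over 8910 bp of H3K4me3). Of 15 pigment epithelium and lens markers 1 had a peak, which was not a SOX9-only promoter. The part of other cell types in the results was not tested.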

How the data were processed

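The authors deposited 1 peak list per target and age for CUT&RUN of retina at P2 and P17. The submitters' processing notes name Bowtie2, SEACR and GRCm38; versions, thresholds, the use of IgG and the combining of libraries are not given in the sources used here. The deposited lists hold positions only, with a score of 0 in every peak, so depth is unknown. Each list was taken to stand for its group; IgG libraries were not analysed here.

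Overlaps (1 bp or more), widths and Wilson intervals were computed with Python 3.11.15, numpy 2.4.6, pandas 2.3.3 and scipy 1.17.1, and drawn with matplotlib 3.10.9. The overlap step was tested on simulated data. Of 21887 protein-coding genes, 17492 were placed by starts in the RefSeq promoter table of GRCm38.p6 and 4395 by either gene end, so a gene such as Kdm3b or Rpl36 can lie at 2 regions. Of 1475 listed genes, 1473 matched. Peak classes were compared by counts, with no test, since regions are not replicates.

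The regions and gene lists were chosen with earlier results of these data known. Named genes are the widest regions per list (at most 6 with values), the widest and narrowest regions, those with most and least SOX9 overlap, those next to the selection's limits, the widest without a P17 mark and the highest and lowest width ratios; others were named after their values were seen. Some genes that the rule names are not reported here.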

Additional observations from a re-analysis of the deposited data

How the results depend on the processing

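Of 99 values recomputed under other settings, 88 stayed within the interval of the reported value. Counts had to stay within 1.5 times and differences between classes to keep their sign. Some of these 88 were fixed in advance. Requiring 200 bp of SOX9 overlap, or a P2 H3K4me3 peak of at least 1 kb, changed no value. The smallest SOX9 overlap was 319 bp and the narrowest P2 H3K4me3 peak 1096 bp. The other 11 moved, and 9 of these came from keeping only the wider 50% of each list. That setting left 696 regions and 135 listed genes. P17 H3K4me3 was then present at 72.6%, P17 H3K27ac at 64.8%, both at 55.9%, P2 H3K27ac at 98.9% and a gene start at 92.0%. Median widths were 4671 bp for H3K4me3 and 3039 bp for SOX9 overlap. Shares of the other classes were lower too. P17 H3K4me3 was present at 60.0% with no SOX peak and 85.9% with SOX9 and SOX8, and P17 H3K27ac at 53.7% and 81.9%. With the P2 H3K27ac list cut to its 29909 widest peaks, 28.1% of regions overlapped it, and the share in other classes was not computed. AACAAT in place of ACAAT was found in 4.33% of windows. The cause of these moves was not tested, beyond fewer and wider peaks in the shortened lists and a longer word. The gaps of SOX9-only promoters to peaks with no SOX peak and to peaks with SOX9 and SOX8 went from 3.57 and -6.58 to 12.6 and -13.3 percentage points for H3K4me3 with the wider 50%, and from 8.63 and -9.57 to 11.1 and -17.1 for H3K27ac. The order of the 3 classes was the same in each of the 24 comparisons rerun for P17 marks. These include the comparisons under the settings that could change nothing. They were added after seeing the data, as were the settings for cell cycle genes (27.3 to 42.9% with P17 H3K4me3, the last over 7 genes) and SOX9 overlap.

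No paired analysis was possible because the lists hold no values per replicate, so no replicate was left out. Peak height, depth and signal over background are unknown, so a mark or factor below a list's threshold cannot be told from one that is absent.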

Other observations

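Several SOX9-only promoters lay in clusters of replication-dependent histone genes, which are transcribed mainly in S phase; they were singled out after their values were seen. On chromosome 13, the region of H1f5, H3c11 (6949 bp at P2) had neither mark at P17. The region of H4c12, H2ac15, H2bc15 went from 7971 to 2638 bp of H3K4me3, and that of H4c8, H2ac10, H3c8 from 9372 to 5061 bp. The region of H1f2, a linker histone gene, had 5664 bp at P17 over 5218 bp at P2, and that of H4c4, H2bc6 had 6185 over 6324 bp. The core histone genes among these have near-identical copies, and how reads that match several copies were handled is not given in the sources used here.

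Chromosome X held few SOX9-only promoters for its H3K4me3 peaks. They were 24 of 253 peaks there, or 9.49% (95% Wilson interval 6.46 to 13.7%), the lowest share of any chromosome, against 14.5% on chromosome 7 and 22.7% on chromosome 14, the lowest and highest autosomes. Of the 253 peaks, 37 overlapped P2 SOX9 at all, so SOX9-only promoters were 64.9% of the SOX9-bearing peaks on chromosome X, the highest share of any chromosome, while the autosomes ranged from 28.5 to 48.1%. Among the X-linked regions, Huwe1, a ubiquitin ligase gene, had the widest (7148 bp), and Gemin8, of the SMN complex (5120 bp), had H3K27ac but no H3K4me3 peak at P17.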
